A study of Mus musculus with 9 samples.

Results

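The 36 genes described here encode the machinery with which the endoplasmic reticulum (ER) imports, folds and disposes of proteins, together with the sensors of the unfolded protein response. They were chosen by gene name: each was read at its brightest probe set, judged by the mean of the 9 arrays, and all 36 were measured, out of 18193 genes with a probe set of their own. Total RNA came from 3T3-L1 cells, a mouse preadipocyte line that is turned into fat cells in culture, and was hybridized to Affymetrix mouse expression arrays. The groups were adipocytes given phenformin, adipocytes given conjugated linoleic acid (CLA) and adipocytes given linoleic acid (LA), the last being the control, with 3 arrays each that the labels call biological replicates. CLA and LA are isomers that differ in whether their double bonds are conjugated or separated by a methylene group, and phenformin is a biguanide, a class of drugs that act on mitochondrial respiration. The labels state neither dose nor time of treatment, nor which isomer the CLA was, nor whether LA was present with phenformin, so the treatments are not known to be matched. All cells are of a single immortal line, which limits them as a model of fat tissue. Levels are RMA log2 values, differences are log2 fold changes ± SE from limma with 3 arrays per group, and a gene is called where its p-value, adjusted over all probe sets, is under 0.05.

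Proteins that are secreted or set into membranes enter the ER through the Sec61 channel, are glycosylated, and fold with the help of the chaperone BiP, of lectins that hold sugar-bearing chains, and of isomerases that form disulphide bonds. Chains that fail to fold are passed back to the cytosol and degraded, which is called ER-associated degradation. When unfolded proteins accumulate, the sensors IRE1 (Ern1), ATF6 and PERK (Eif2ak3) raise the transcription of chaperones and disposal factors and slow translation. Adipocytes secrete large amounts of adipokines and depend on this machinery. IRE1 acts by splicing Xbp1 mRNA, ATF6 by being cut, and PERK by phosphorylating a translation factor, steps that were not measured by these arrays.

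The promoter element through which ATF6 and spliced XBP1 act on chaperone genes, the ER stress element, reads CCAAT, then 9 bases of any kind, then CCACG. The search covered both strands of RefSeq windows that run from 250 bases before to 50 bases after the gene start (mouse build GRCm38.p6). Windows were given for 31 of the 36 genes, and those of Atf6, Hyou1, Manf, Sec61a1 and Derl1 were not analysed here. The element was found in 9 of the 31 genes (29.0%), against 39 of 32851 windows of all genes (0.119%). The 31 genes had 33 windows, so genes are set beside windows here. The members were chosen as genes of the response that this element serves, so the comparison is a description and not a test. The related element II, which reads ATTGG, any base and CCACG, was found in Dnajb11 and Herpud1, 2 of the 31, against 12 of all windows (0.0365%). This shorter motif was added after the other motifs had been chosen. The sites are printed below because they show which chaperone and disposal genes share the element, and each is turned to read with its CCAAT or ATTGG box ahead of CCACG, on the strand given. Capitals mark these fixed boxes and lower case marks the spacer.
Hspa5, chr2:34772025-34772043, plus strand: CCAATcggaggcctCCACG
Hsp90b1, far site, chr10:86705638-86705656, minus strand: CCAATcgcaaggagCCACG
Hsp90b1, near site, chr10:86705533-86705551, plus strand: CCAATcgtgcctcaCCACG
Dnajc3, chr14:118937827-118937845, plus strand: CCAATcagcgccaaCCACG
Creld2, chr15:88819520-88819538, minus strand: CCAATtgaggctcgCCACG
Calr, chr8:84847075-84847093, plus strand: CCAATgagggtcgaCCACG
Canx, chr11:50325800-50325818, minus strand: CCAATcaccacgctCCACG
Pdia6, chr12:17266491-17266509, plus strand: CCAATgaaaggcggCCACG
Syvn1, chr19:6046532-6046550, plus strand: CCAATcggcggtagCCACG
Derl3, chr10:75893242-75893260, minus strand: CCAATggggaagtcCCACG
Dnajb11, element II, chr16:22857852-22857862, plus strand: ATTGGcCCACG
Herpud1, element II, chr8:94386377-94386387, plus strand: ATTGGgCCACG

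Hsp90b1 was the member with 2 copies. Counted along the gene, the sites began 44 bases (Syvn1) to 212 bases (Hsp90b1) before the gene start, except that of Dnajb11, which lies after it. Of the looser motifs, CCACG was found in 26 and CCAAT in 24 of the 31 genes, against 32.8% and 37.4% of all windows. ACGTGG, the core of the element that binds XBP1, was found in 11 of the 31 (8.31% of all windows). Neither the longer form TGACGTGG nor the amino acid response element TGATGNAAT, which binds ATF4, was found in these windows, against 0.676% and 0.965% of all windows. These motifs overlap, since the ER stress element holds CCAAT and CCACG and TGACGTGG holds ACGTGG. A match of letters is a description of the window, not of binding.

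The whole windows of 3 genes are shown because Hspa5 encodes BiP and Creld2 and Herpud1 are the members whose levels were called different between phenformin and CLA: Hspa5 at chr2:34771840-34772139, Creld2 at chr15:88819396-88819695 and Herpud1 at chr8:94386179-94386478, each on the plus strand. Capitals mark the ER stress element or element II, which in Creld2 reads on the opposite strand.
Hspa5: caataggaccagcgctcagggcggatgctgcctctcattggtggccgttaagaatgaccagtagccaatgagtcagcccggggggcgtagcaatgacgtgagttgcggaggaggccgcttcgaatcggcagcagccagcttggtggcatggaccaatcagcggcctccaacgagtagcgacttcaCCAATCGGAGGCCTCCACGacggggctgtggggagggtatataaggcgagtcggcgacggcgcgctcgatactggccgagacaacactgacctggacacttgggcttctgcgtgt
Creld2: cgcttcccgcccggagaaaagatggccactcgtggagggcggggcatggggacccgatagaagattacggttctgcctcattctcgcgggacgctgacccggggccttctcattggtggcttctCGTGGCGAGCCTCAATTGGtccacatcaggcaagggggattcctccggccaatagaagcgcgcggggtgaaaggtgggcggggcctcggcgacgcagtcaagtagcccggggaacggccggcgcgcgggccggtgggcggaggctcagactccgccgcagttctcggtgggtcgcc
Herpud1: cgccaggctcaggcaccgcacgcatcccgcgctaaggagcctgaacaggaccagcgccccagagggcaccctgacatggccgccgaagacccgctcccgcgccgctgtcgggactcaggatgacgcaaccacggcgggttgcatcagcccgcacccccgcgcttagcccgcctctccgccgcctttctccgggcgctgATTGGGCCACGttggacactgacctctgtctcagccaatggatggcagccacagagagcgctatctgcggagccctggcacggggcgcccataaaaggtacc

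LA replicate 3 stood apart from the other arrays. Its 99th percentile was 11.62, against 12.18 and 12.32 on the other LA arrays and 12.34 to 12.45 on the treated arrays. All LA arrays thus lay below all treated arrays, and leaving out LA replicate 3 does not remove that offset. LA replicate 3 had the lowest value of its group for 28 of the 36 genes (77.8%), against 45.6% of all genes and 55.4% of genes that were not dim. The 3' minus 5' difference of beta-actin, which grows as RNA is shortened, was 0.56 ± 0.09 in phenformin, 0.53 ± 0.10 in CLA and 1.28 ± 0.39 in LA (SD, n = 3). All 36 genes were above background, the lowest value being 6.07 for Derl3 against a background level of 3.68 to 4.20 per array. The mean level of 9 adipocyte markers was 12.79 to 12.97 in phenformin, 12.66 to 12.83 in CLA and 12.40 to 13.17 in LA, with 1 of 9 higher in phenformin than in LA, and 1 higher and 2 lower in CLA than in LA. That of 9 preadipocyte and fibroblast markers was 10.18 to 10.50 in phenformin, 10.39 to 10.68 in CLA and 8.75 to 9.13 in LA, with 6 of 9 higher in phenformin than in LA and 7 of 9 higher in CLA than in LA. The macrophage list lay at 4.60 to 4.63 in phenformin, 4.73 to 4.91 in CLA and 4.70 to 4.81 in LA. Of its 10 genes 2 were lower in phenformin and 1 was higher in CLA than in LA. Ptprc, Itgam and Mrc1 were at or under background on every array, and the others were not. The brightest of the 10, Cd14, had means of 7.47 in phenformin, 8.91 in CLA and 8.19 in LA. RNA quality and the fibroblast markers thus differed between LA and both treatments. The part of the fibroblast markers in the results was not tested, and a measure of RNA quality was entered as a covariate, with the values given beside the results. Calls that change without LA replicate 3 are given with and without it. In whole cultures, fewer cells of a type and less RNA per cell cannot be told apart.

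In phenformin-treated adipocytes 8 of the 36 genes were higher than in LA and none was lower, and in CLA-treated adipocytes 10 were higher and none was lower. The phenformin calls were Ern1, Hspa5, Calr, Pdia3, Herpud1, Edem1, Sel1l and Derl1, of which 4 are disposal factors. The CLA calls were Ern1, Hspa5, Hsp90b1, Hyou1, Dnajb11, Sdf2l1, Creld2, Calr, Pdia3 and Edem1, of which 6 belong to the BiP system. Against CLA, phenformin gave higher Herpud1 and lower Creld2 and no other call.

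These counts were read against all genes. Of all 18193 genes, 13.7% were higher and 5.11% lower in phenformin than in LA, or 20.4% and 6.64% of the 12011 genes that were not dim, as all 36 members were. The members' share of 22.2% higher was near that background. In CLA against LA, 12.6% of all genes were higher and 7.58% lower, or 18.6% and 10.9% of genes that were not dim, beside 27.8% of the members higher. Between phenformin and CLA the shares were 3.95% higher and 2.35% lower, or 5.91% and 3.45% of genes that were not dim. The median log2 fold change of the members was 0.27 in phenformin against LA (0.12 over genes that were not dim), 0.39 in CLA against LA (0.09) and -0.05 in phenformin against CLA (0.03). The comparisons with LA share the LA arrays.

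The scaling of the arrays bears on these splits. When the values were quantile normalized, 6 members were higher and 4 lower in phenformin than in LA, the lower ones being Atf6, Manf, Creld2 and Sec61a1. Of all genes 9.10% were then higher and 10.9% lower, so the members lower were near the share of all genes. In CLA against LA 8 members were then higher and 1, Atf6, lower, with Hyou1 and Calr no longer called, beside 10.4% of all genes higher and 12.7% lower. Between phenformin and CLA, 2 members were higher (Herpud1 and Edem1) and 3 lower (Manf, Creld2 and Syvn1), beside 3.46% and 3.52% of all genes. The members' medians became -0.01, 0.13 and -0.09 in that order of comparisons. Without LA replicate 3, 7 members were higher and 0 lower in phenformin than in LA, with Calr and Pdia3 lost and Sdf2l1 gained. In CLA 10 members were then higher and 2 lower (Atf6 and Edem3) than in LA. Of all genes 12.7% were higher and 6.61% lower in phenformin, and 11.9% higher and 9.48% lower in CLA, without that array. The members' median was then 0.21 in phenformin and 0.24 in CLA against LA. Under these settings, and with the RNA quality covariate, shares over genes that were not dim were not counted. The shares given are over all genes, dim ones included, and so are not a like background for the members.

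Several calls changed when a measure of RNA quality entered the fit. The covariate was taken from the pyruvate carboxylase control probe sets, as the 3' value less the 5' value, and was 3.95 ± 0.60 in phenformin, 4.02 ± 0.63 in CLA and 5.35 ± 0.43 in LA (SD, n = 3). In that fit 6 members were higher in phenformin and 7 in CLA than in LA, with none lower. Of all genes 7.19% and 8.68% were then higher. Of the 10 CLA calls 6 were lost: Ern1, Hsp90b1, Dnajb11, Sdf2l1, Creld2 and Calr (adjusted p from 0.0532 to 0.235). Dnajc3, Sel1l and Derl1 were gained in CLA. Of the 8 phenformin calls Calr and Pdia3 were lost. Hspa5 was still called in phenformin (1.33 ± 0.32, adjusted p = 0.0343) and in CLA (1.71 ± 0.31, adjusted p = 0.00879). The covariate itself differs between LA and both treatments, so that its part and that of the treatments cannot be fully told apart. Within phenformin and within CLA it did not follow the beta-actin difference. There replicate 3 had the highest beta-actin value (0.66 and 0.63) but the lowest pyruvate carboxylase value (3.30 and 3.33). In LA replicate 1 was highest and replicate 3 lowest by both. The changed calls are therefore those of this measure, and cannot be read as a correction for RNA quality in general. Between phenformin and CLA, Herpud1 and Creld2 were called as before.

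**Figure D1:**
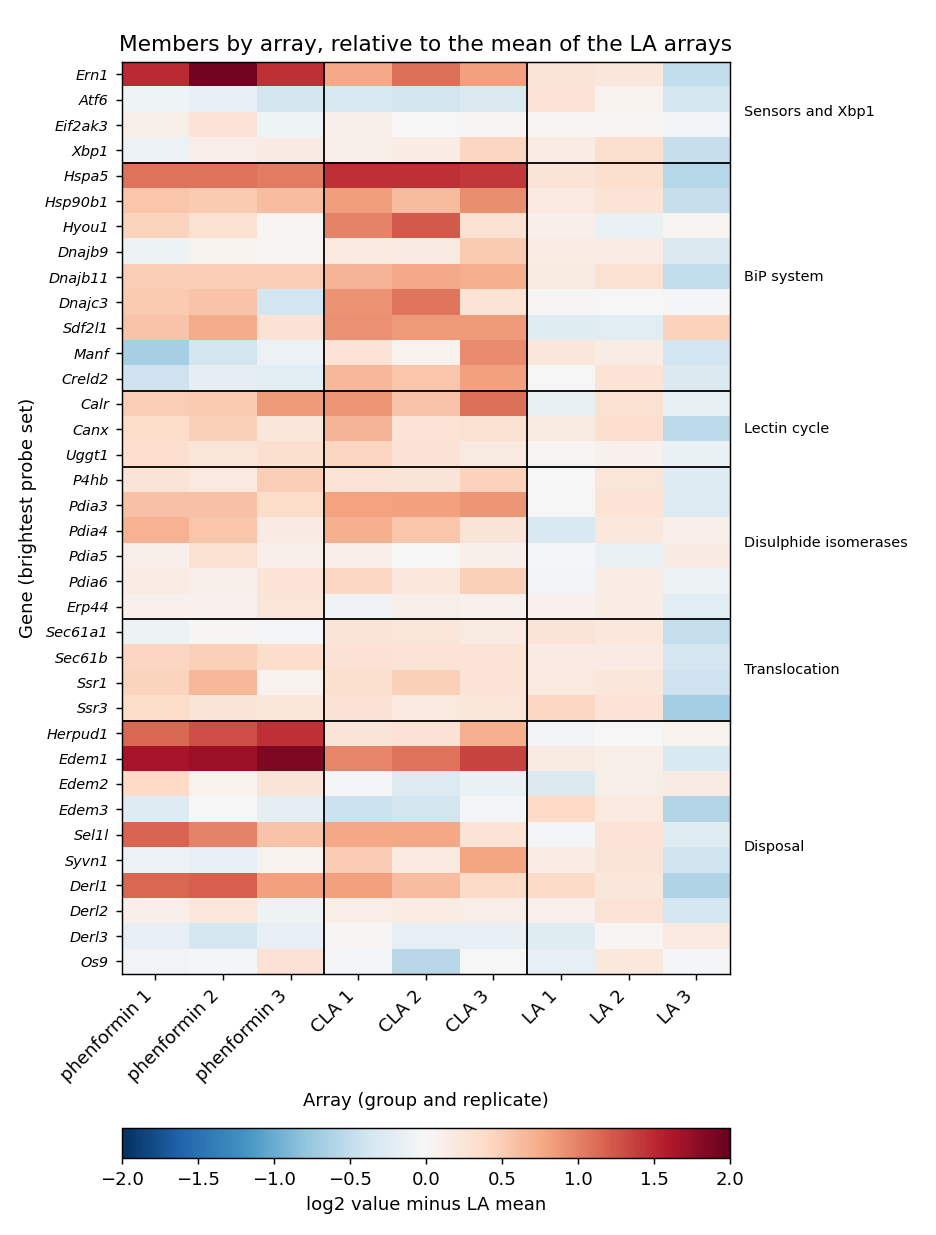
Each row is a gene, grouped by role, and each column an array, with the phenformin arrays at the left, then CLA, then LA. Colour gives the log2 value minus the mean of the 3 LA arrays. Ern1, Herpud1 and Edem1 are reddest in the phenformin arrays and Hspa5 in the CLA arrays, and LA replicate 3 is blue for most genes.

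**Figure D2:**
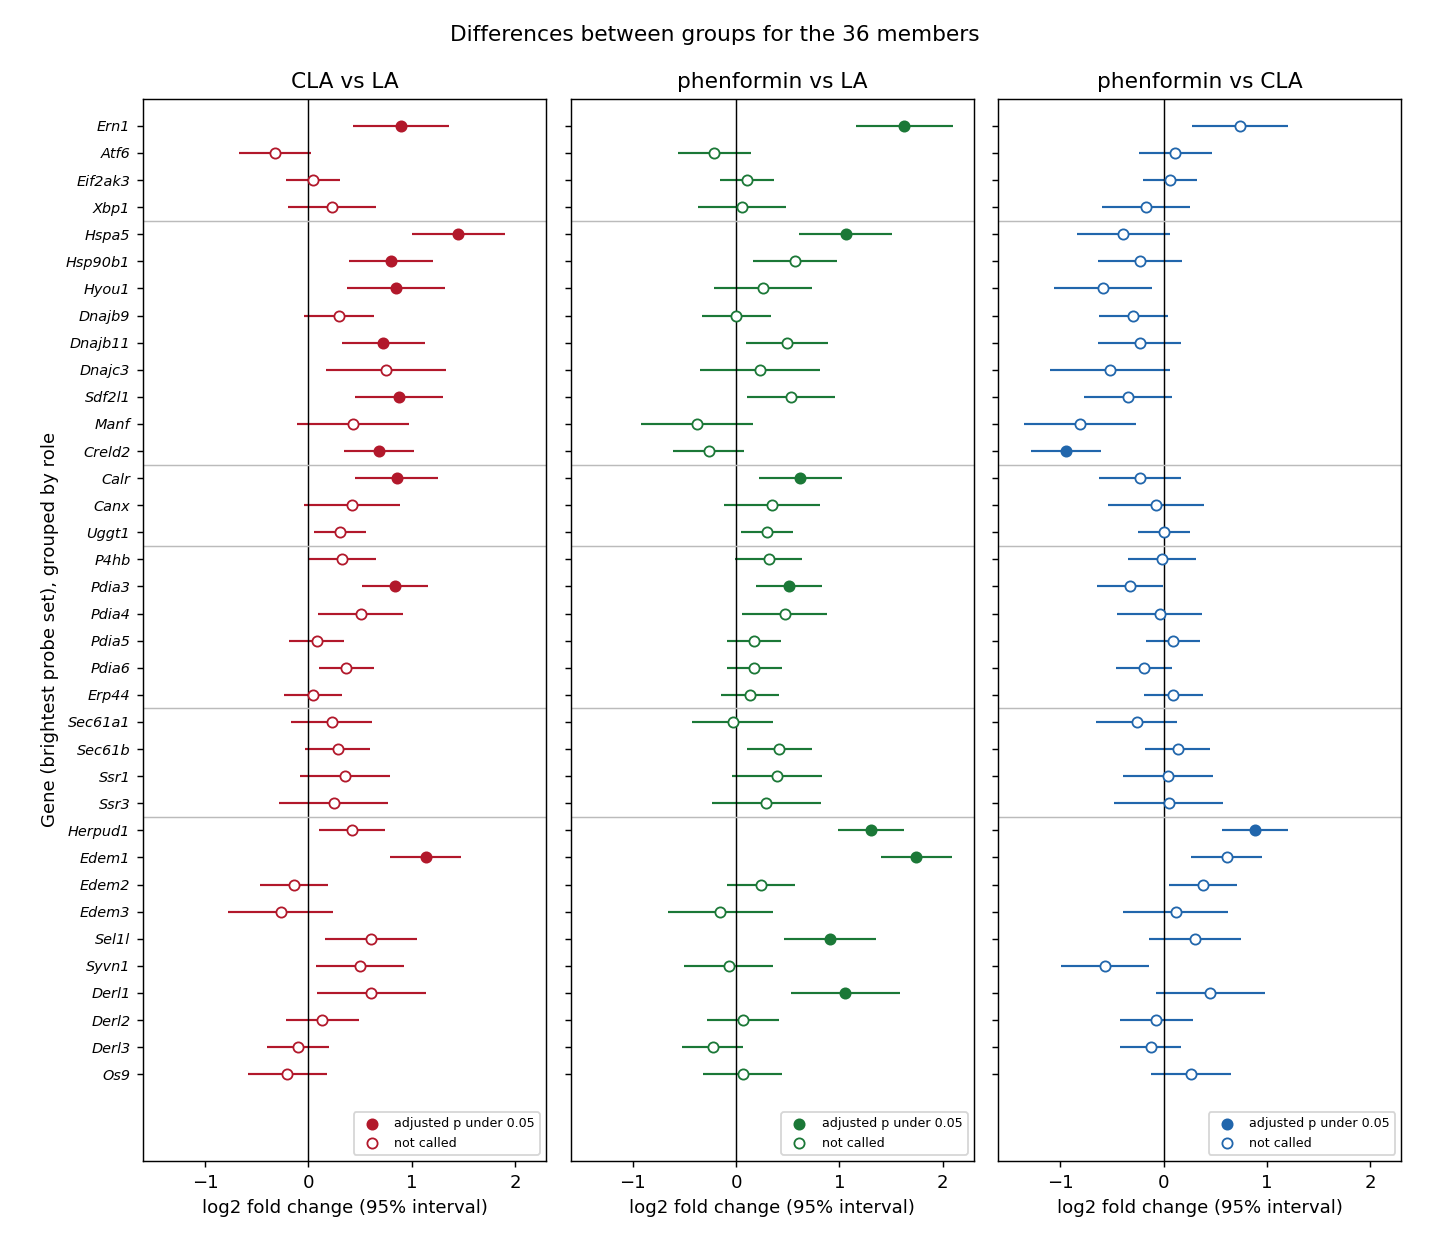
Points are log2 fold changes of the 36 genes in the 3 comparisons with 95% intervals, filled where the adjusted p is under 0.05. In phenformin against CLA all 9 BiP-system genes lie left of 0, and the filled points are Creld2 at the left and Herpud1 at the right.

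Among the sensors and the transcription factor downstream, Ern1 was the member called, and it was higher in both treatments. Ern1, the kinase and endonuclease IRE1, had log2 values of 8.39, 8.82 and 8.36 in phenformin, 7.66, 7.99 and 7.71 in CLA, and 7.16, 7.12 and 6.41 in LA. The 3 groups did not overlap. Its log2 fold change was 1.63 ± 0.21 in phenformin against LA (3.09-fold, adjusted p = 0.000565) and 0.89 ± 0.21 in CLA against LA (1.86-fold, adjusted p = 0.0151). The RNA quality covariate ended the CLA call, as did leaving out CLA replicate 2 (adjusted p = 0.0675). With the covariate the CLA value was 1.13 ± 0.32 (adjusted p = 0.0532). The difference between phenformin and CLA was 0.74 ± 0.21 and was not called (adjusted p = 0.0842), but passed without LA replicate 3 (adjusted p = 0.0186). The other 4 probe sets of Ern1, of which 3 were dim, were not called, so this result rests on a single probe set. The mean over the probe sets was not called, at 0.39 ± 0.13 in phenformin (adjusted p = 0.0542) and 0.23 ± 0.13 in CLA (adjusted p = 0.245) against LA. Eif2ak3, the kinase PERK, was level across the groups, at 8.73 ± 0.18 in phenformin, 8.67 ± 0.05 in CLA and 8.63 ± 0.05 in LA (SD), with 95% intervals of -0.16 to 0.36 and -0.22 to 0.30 for phenformin and CLA against LA. Xbp1, the target of IRE1, was at 11.82 ± 0.16, 11.99 ± 0.17 and 11.76 ± 0.41 in the same order of groups and was not called. Atf6, the sensor that is cut to a transcription factor, was not called by its brightest probe set, at 7.79 ± 0.15, 7.68 ± 0.04 and 8.0 ± 0.32.

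Among the 6 roles of the members, the BiP system had most calls in CLA, where 6 of 9 members were higher than in LA, against 1 of 9 in phenformin. The median log2 fold change of the 9 genes was 0.26 in phenformin and 0.75 in CLA against LA. After quantile normalization these medians were 0.02 and 0.54, with 5 of 9 and 8 of 9 positive, and without LA replicate 3 they were 0.25 and 0.56. Hspa5 encodes BiP itself, the main ER chaperone, and was the brightest of the 36 genes. Hspa5 had log2 values of 13.45, 13.45 and 13.39 in phenformin, 13.83, 13.83 and 13.79 in CLA, and 12.63, 12.68 and 11.79 in LA. No value of a group lay within the range of another, and LA replicate 3 was lowest by far. Its log2 fold change was 1.06 ± 0.20 in phenformin against LA (2.09-fold, adjusted p = 0.0053) and 1.45 ± 0.20 in CLA against LA (2.73-fold, adjusted p = 0.000799). Both calls were made under all 17 alternative settings, with a phenformin value of 0.71 ± 0.10 after quantile normalization. A probe set of Hspa5 at mean level 12.31 was called in both treatments (0.94 ± 0.27 in phenformin, 1.31 ± 0.27 in CLA). Another at 9.27 was called in CLA (0.56 ± 0.16, adjusted p = 0.0373) but not in phenformin (0.18 ± 0.16, adjusted p = 0.536).

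Hsp90b1, the ER form of the chaperone HSP90, had log2 values of 12.05, 12.01 and 12.10 in phenformin, 12.32, 12.11 and 12.42 in CLA, and 11.67, 11.76 and 11.02 in LA. Every treated array lay above every LA array. The CLA difference from LA was called (0.80 ± 0.18, adjusted p = 0.0133) and the phenformin difference was not (0.57 ± 0.18, adjusted p = 0.0598), although its other probe set gave 1.57 ± 0.21 (adjusted p = 0.000763) for phenformin. The phenformin value of the brightest passed without LA replicate 2 (adjusted p = 0.039), but was 0.34 ± 0.12 without LA replicate 3 (adjusted p = 0.0988) and 0.21 ± 0.10 after quantile normalization (adjusted p = 0.189). Its call in CLA was lost with the RNA quality covariate (0.85 ± 0.30, adjusted p = 0.0984) or without CLA replicate 1 (adjusted p = 0.0537), and its value was 0.47 ± 0.10 after quantile normalization (adjusted p = 0.00867). Hyou1, which exchanges nucleotide on BiP, had log2 values of 9.11, 8.98 and 8.69 in phenformin, 9.67, 9.89 and 8.98 in CLA, and 8.76, 8.53 and 8.71 in LA. Its CLA replicate 3 fell among the phenformin values, and the CLA difference from LA was 0.84 ± 0.21 (adjusted p = 0.0217). That call was lost without CLA replicate 1, CLA replicate 2 or LA replicate 2 (adjusted p = 0.0918, 0.0858 and 0.0747). The RNA quality covariate gave 1.42 ± 0.24 (adjusted p = 0.00687), and quantile normalization 0.67 ± 0.23, no longer called (adjusted p = 0.0738).

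The J-domain partner of BiP, Dnajb11, had the same log2 value of 9.79 on all 3 phenformin arrays. In CLA it was 9.98, 10.06 and 10.03, and in LA 9.48, 9.61 and 8.81, so the CLA arrays were highest and the groups did not overlap. The CLA difference from LA was 0.72 ± 0.18 (adjusted p = 0.0197), and was lost without CLA replicate 1 or CLA replicate 2 (adjusted p = 0.0582 and 0.0676), with the RNA quality covariate (adjusted p = 0.0841) and in a fit of CLA and LA alone (adjusted p = 0.0531). Without LA replicate 3 it was 0.48 ± 0.10 (adjusted p = 0.0115). Phenformin differed from LA by 0.49 ± 0.18 (adjusted p = 0.0931), by 0.65 ± 0.18 without LA replicate 2 (adjusted p = 0.0432) and by 0.25 ± 0.10 without LA replicate 3 (adjusted p = 0.146). Sdf2l1, which works with Dnajb11 and BiP, had log2 values of 7.87, 8.05 and 7.58 in phenformin, 8.22, 8.16 and 8.16 in CLA, and 7.06, 7.08 and 7.77 in LA. Here LA replicate 3 was the highest of its group, within the phenformin range. Sdf2l1 was 0.88 ± 0.19 higher in CLA than in LA (adjusted p = 0.0104), a call lost with the RNA quality covariate (0.86 ± 0.31, adjusted p = 0.109), and the phenformin difference of 0.53 ± 0.19 (adjusted p = 0.0909) passed without LA replicate 3 (0.76 ± 0.14, adjusted p = 0.00536).

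Creld2, an ER-resident factor known as a target of ATF6, took a different course in the 2 treatments. It had log2 values of 8.09, 8.34 and 8.31 in phenformin, 9.18, 9.07 and 9.33 in CLA, and 8.53, 8.79 and 8.23 in LA. All CLA values lay above all others, while phenformin and LA overlapped. The difference from LA was -0.27 ± 0.15 in phenformin (adjusted p = 0.298) and 0.68 ± 0.15 in CLA (adjusted p = 0.0121). The CLA call was lost with the RNA quality covariate (0.56 ± 0.24, adjusted p = 0.173). After quantile normalization the phenformin value was called as lower, at -0.48 ± 0.12 (adjusted p = 0.0191). Dnajb9 (a BiP cochaperone that restrains IRE1), Dnajc3 (a BiP cochaperone that also inhibits PERK) and Manf (a secreted ER protein that binds BiP) were not called, with differences from LA of 0.00, 0.23 and -0.38 in phenformin and 0.30, 0.75 and 0.43 in CLA. The CLA value of Dnajc3 (adjusted p = 0.0818) passed without CLA replicate 3 or phenformin replicate 3 (adjusted p = 0.0253 and 0.0232).

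Of the 3 genes of the lectin cycle, Calr was called in both treatments. Calreticulin (Calr), which holds glycoproteins while they fold, had log2 values of 12.35, 12.37 and 12.71 in phenformin, 12.74, 12.42 and 12.96 in CLA, and 11.71, 12.16 and 11.70 in LA. LA lay below both treatments on every array, and phenformin and CLA overlapped. Its difference from LA was 0.62 ± 0.18 in phenformin (adjusted p = 0.0385) and 0.85 ± 0.18 in CLA (adjusted p = 0.00859). With the RNA quality covariate neither was called, at 0.26 ± 0.26 in phenformin (adjusted p = 0.617) and 0.51 ± 0.25 in CLA (adjusted p = 0.235), nor after quantile normalization, at 0.26 ± 0.17 (adjusted p = 0.354) and 0.53 ± 0.17 (adjusted p = 0.0501). The phenformin call held under 6 of 17 alternatives, and was lost when any of LA replicates 1 and 3, phenformin replicates 1, 2 and 3 and CLA replicate 1 was left out (adjusted p from 0.0622 to 0.125). Canx, its membrane-bound relative calnexin, and Uggt1, the sensor that returns misfolded glycoproteins to the cycle, were not called, with 0.35 and 0.30 in phenformin and 0.42 and 0.30 in CLA.

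Among the 6 disulphide isomerases Pdia3, the partner of calreticulin and calnexin, was called in both treatments. Pdia3 had log2 values of 11.74, 11.75 and 11.53 in phenformin, 11.97, 11.98 and 12.04 in CLA, and 11.15, 11.44 and 10.89 in LA. The groups did not overlap, with CLA highest. The difference from LA was 0.51 ± 0.14 in phenformin (adjusted p = 0.0336, held under 7 of 17 alternatives) and 0.84 ± 0.14 in CLA (adjusted p = 0.00272, held under all 17). Without LA replicates 1 or 3, phenformin replicates 1 or 2 or CLA replicate 1 the phenformin call was lost (adjusted p from 0.0538 to 0.116), as it was with the RNA quality covariate (adjusted p = 0.145) and after quantile normalization (0.17 ± 0.11, adjusted p = 0.37). Quantile normalization gave 0.51 ± 0.11 in CLA (adjusted p = 0.00918). P4hb, Pdia4, Pdia5, Pdia6 and Erp44 were not called, with differences from LA of 0.14 to 0.47 in phenformin and 0.04 to 0.51 in CLA.

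None of the 4 translocation genes was called by its brightest probe set. Sec61a1 and Sec61b, subunits of the channel, differed from LA by -0.03 and 0.42 in phenformin and by 0.23 and 0.28 in CLA. Ssr1 and Ssr3, subunits of the complex beside the channel, differed by 0.40 and 0.29 in phenformin and by 0.35 and 0.24 in CLA. In LA the SD of Ssr3 was 0.60, the widest among the members, and the median SD of the members was 0.14 in phenformin, 0.14 in CLA and 0.28 in LA.

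Among the 6 roles of the members, disposal was the one with most calls in phenformin. By the brightest probe set 4 of 10 were higher in phenformin than in LA, against 1 of 10 in CLA. The same genes, Herpud1, Edem1, Sel1l and Derl1, were called in phenformin after median centring, after quantile normalization and without LA replicate 3. Over the 10 genes the median difference from LA was 0.15 in phenformin and 0.28 in CLA, so the calls rest on single genes and not on the list as a whole. After quantile normalization these medians were -0.07 and 0.05, and without LA replicate 3 they were 0.18 and 0.15. The split between the treatments depends on the probe set. Single other probe sets of Derl1 (0.82 ± 0.16, adjusted p = 0.00599), Sel1l (0.54 ± 0.15, adjusted p = 0.0335) and Syvn1 (0.78 ± 0.15, adjusted p = 0.00591) were called higher in CLA than in LA. The remaining probe sets of Derl1 and Sel1l were not called there.

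Edem1, which recognises mannose-trimmed glycoproteins for disposal, had log2 values of 10.81, 10.87 and 11.03 in phenformin, 10.14, 10.24 and 10.51 in CLA, and 9.34, 9.28 and 8.86 in LA. Phenformin, CLA and LA formed 3 separate steps. Edem1 rose by 1.74 ± 0.15 in phenformin (3.35-fold, adjusted p = 6.47e-05), the largest difference from LA among the members, and by 1.13 ± 0.15 in CLA (2.2-fold, adjusted p = 0.000671). Herpud1, a membrane protein that assembles the ubiquitin ligase of this pathway, had log2 values of 10.66, 10.80 and 10.97 in phenformin, 9.77, 9.80 and 10.22 in CLA, and 9.46, 9.50 and 9.57 in LA. The phenformin arrays were well above the rest, and CLA lay just above LA. Herpud1 rose by 1.30 ± 0.14 in phenformin against LA (2.47-fold, adjusted p = 0.000224), while the CLA difference of 0.42 ± 0.14 was not called (adjusted p = 0.0755).

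Sel1l, the partner of that ligase, had log2 values of 11.24, 11.06 and 10.65 in phenformin, 10.85, 10.84 and 10.35 in CLA, and 10.03, 10.35 and 9.84 in LA. Replicate 3 was lowest in each group. Its difference from LA was 0.91 ± 0.20 in phenformin (adjusted p = 0.0109) and 0.61 ± 0.20 in CLA (adjusted p = 0.0667, 0.0263 without CLA replicate 3 and 0.0477 without phenformin replicate 3). Derl1, a component of the channel through which substrates leave the ER, had log2 values of 12.45, 12.48 and 12.12 in phenformin, 12.11, 11.92 and 11.67 in CLA, and 11.68, 11.52 and 10.69 in LA. Here too replicate 3 was lowest in each group. The difference from LA was 1.06 ± 0.24 in phenformin (2.08-fold, adjusted p = 0.0121) and 0.61 ± 0.24 in CLA (adjusted p = 0.119). Both phenformin calls were lost without phenformin replicate 1 (adjusted p = 0.0514 for Sel1l and 0.0505 for Derl1), and with the RNA quality covariate they were 1.47 ± 0.24 and 1.70 ± 0.30 (adjusted p = 0.00764 and 0.00951).

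The remaining disposal genes were not called. Syvn1, the ubiquitin ligase itself, differed from LA by -0.07 in phenformin and 0.50 in CLA. Edem2, Edem3, Derl2, Derl3 and the lectin Os9 lay between -0.23 and 0.24 in phenformin and between -0.27 and 0.13 in CLA against LA. Over all 23 genes without a call in any comparison, differences ran from -0.38 to 0.47 in phenformin and from -0.32 to 0.75 in CLA against LA, and from -0.81 to 0.38 between phenformin and CLA.

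**Figure D3:**
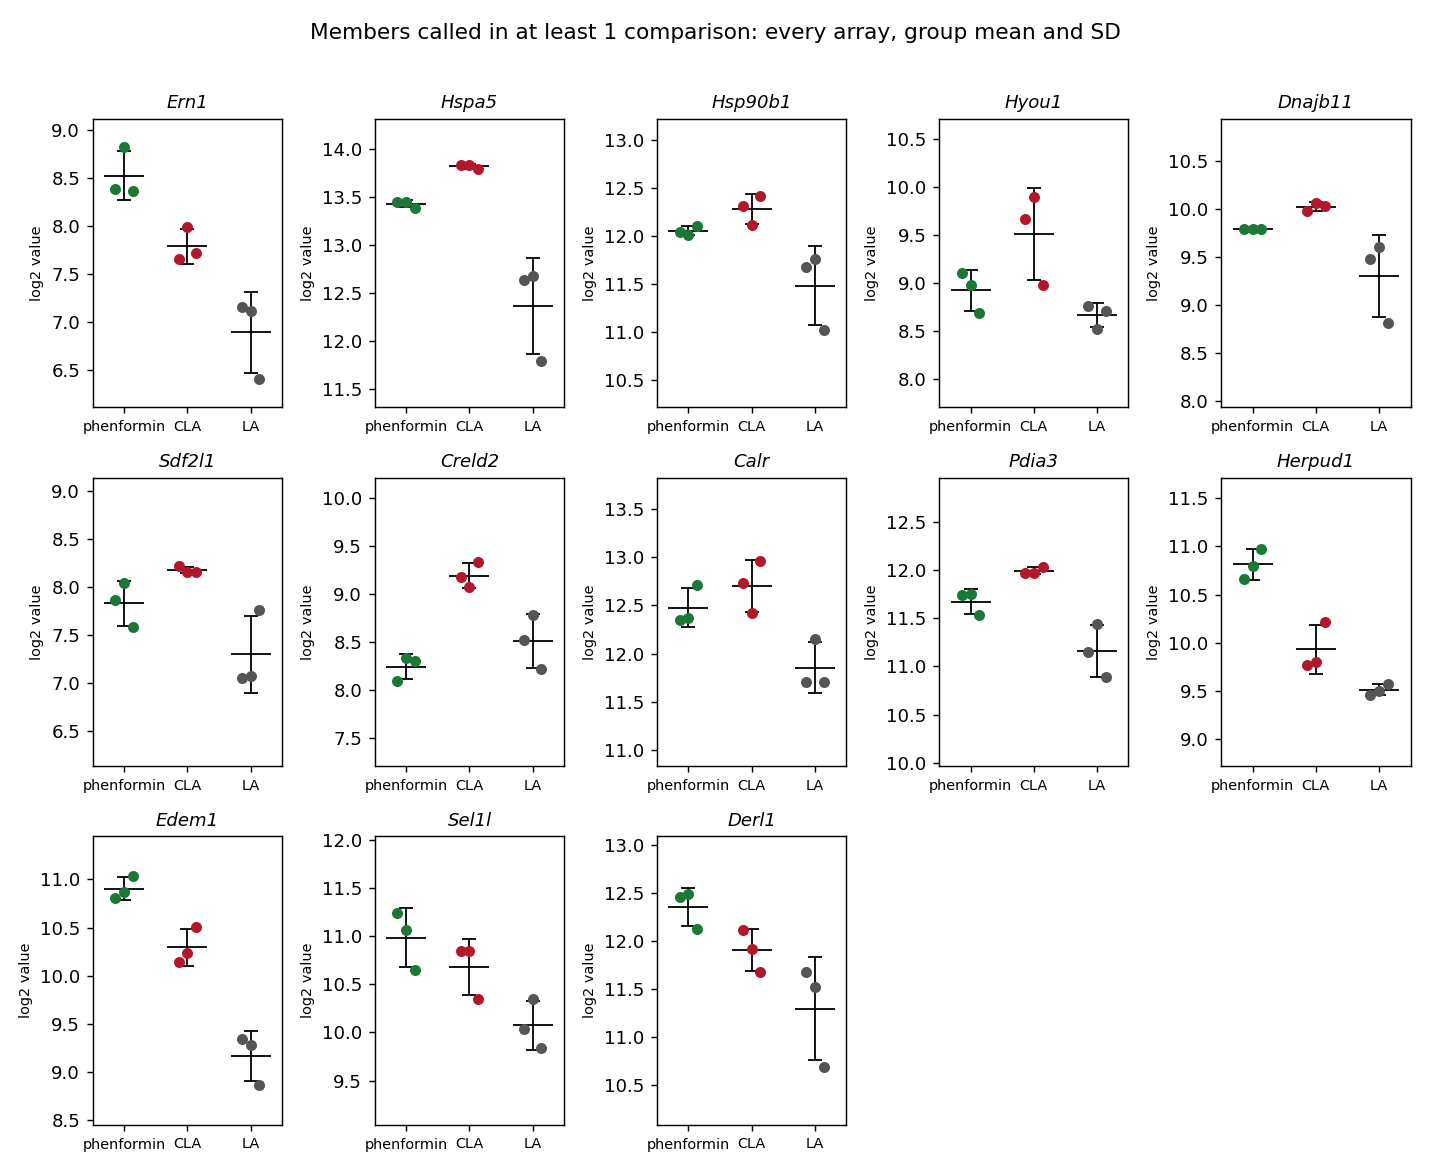
Each panel plots the log2 values of a member called in any comparison, with points for the 3 arrays of phenformin, CLA and LA, bars for the mean and whiskers for the SD. Every panel spans 3 log2 units. Edem1 and Ern1 step down across the groups, Hspa5 and Creld2 are highest in CLA, and Herpud1 is highest in phenformin.

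The direct comparison of phenformin with CLA does not use the LA levels, only the spread of those arrays. Its estimates were negative for the BiP system and mostly positive for the disposal factors among the members, with few calls. All 9 genes of the BiP system had lower estimates in phenformin, from -0.95 to -0.23 with a median of -0.39, and remained negative after median centring and after quantile normalization, against 55.6% of all genes and 45.8% of genes that were not dim. Of the 10 disposal genes 7 were positive, against 44.4% of all genes and 54.2% of genes that were not dim, with a median of 0.29 (0.32 after median centring and 0.22 after quantile normalization, with 7 positive in each). These are counts of signs, and 1 gene of each group passed the test. Creld2 fell by 0.95 ± 0.15 (CLA 1.93-fold higher, adjusted p = 0.00705), and Herpud1 rose by 0.88 ± 0.14 (1.84-fold, adjusted p = 0.00714). Both calls were made under all 17 alternatives. Manf had -0.81 ± 0.24 (adjusted p = 0.104), Hyou1 -0.59 ± 0.21 (adjusted p = 0.185, 0.0173 without CLA replicate 3), Syvn1 -0.57 ± 0.19 (adjusted p = 0.152) and Hspa5 -0.39 ± 0.20 (adjusted p = 0.384, 0.0332 without LA replicate 3), and Edem1 had 0.61 ± 0.15 (adjusted p = 0.0539, 0.0188 without LA replicate 3 and 0.0375 without CLA replicate 3). Without LA replicate 3 the calls were thus 3 higher (Ern1, Herpud1 and Edem1) and 2 lower (Hspa5 and Creld2), beside 5.96% and 3.48% of all genes.

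Set beside the promoters printed above, the 9 genes with the ER stress element had a median of -0.23 between phenformin and CLA, all 9 negative, and the 22 genes whose window lacks it had 0.05, with 8 negative. In CLA against LA 4 of the 9 were called higher (Calr, Creld2, Hsp90b1 and Hspa5) and 5 of the 22. In phenformin against LA 2 of the 9 were called higher (Calr and Hspa5) and 5 of the 22. Herpud1 and Dnajb11, which carry element II, differed in opposite directions between phenformin and CLA, at 0.88 ± 0.14 and -0.23 ± 0.18. The genes with and without the element also differ in role, and no test was made of these splits.

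Different probe sets of a gene did not always give the same answer. Of the 36 genes, 27 had several probe sets and the total was 89. Counting any probe set, 12 genes were higher and 3 lower in phenformin than in LA, and 17 higher and 3 lower in CLA than in LA. This rule gives a gene with several probe sets more chances of a call. Its share over all genes was not counted, so these counts cannot be set against a background. Sec61a1 and Ssr1 had probe sets called in both directions in each of these comparisons. For Ssr1, a probe set at a mean level of 9.50 gave 0.98 ± 0.21 in phenformin and 0.90 ± 0.21 in CLA. One at 4.16, near the background level, gave -1.08 ± 0.16 and -0.89 ± 0.16. Another at 5.07 was called lower in phenformin (-0.59 ± 0.17) but not in CLA. Of Sec61a1, a probe set at 10.76 was called higher in CLA, and one at 8.54 in both treatments. A further probe set of Sec61a1 at a mean level of 9.60 gave 1.26 ± 0.22 in phenformin (adjusted p = 0.00329) and 1.31 ± 0.22 in CLA (adjusted p = 0.00245). The one of Sec61a1 at 6.70 gave -0.66 ± 0.13 (adjusted p = 0.00685) and -0.48 ± 0.13 (adjusted p = 0.032). For Atf6, whose brightest probe set was not called, another gave 1.01 ± 0.25 in phenformin (adjusted p = 0.018) and 1.0 ± 0.25 in CLA (adjusted p = 0.0188). The remaining probe set of Atf6 gave 0.74 ± 0.20 in phenformin (adjusted p = 0.0269) and 0.55 ± 0.20 in CLA (adjusted p = 0.0888). Dnajc3 went the other way, with -1.20 ± 0.14 in phenformin (adjusted p = 0.000291) and -0.73 ± 0.14 in CLA (adjusted p = 0.00483) at a probe set of mean level 7.90. Directions of Sec61a1, Ssr1, Atf6 and Dnajc3 are therefore uncertain.

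For the genes that carry the differences between phenformin and CLA, other probe sets could be set beside the brightest. The other probe set of Herpud1 gave 0.90 ± 0.12 (adjusted p = 0.00303) in phenformin against CLA and that of Edem1 1.13 ± 0.13 (adjusted p = 0.0012). The other probe set of Syvn1 gave -0.67 ± 0.15 (adjusted p = 0.0348). Creld2 and Manf had a single probe set. A different probe set of Xbp1 was higher in CLA than in LA (0.74 ± 0.21, adjusted p = 0.0363), and which transcript forms the probe sets of Xbp1 detect is not given in the files used here.

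**Figure D4:**
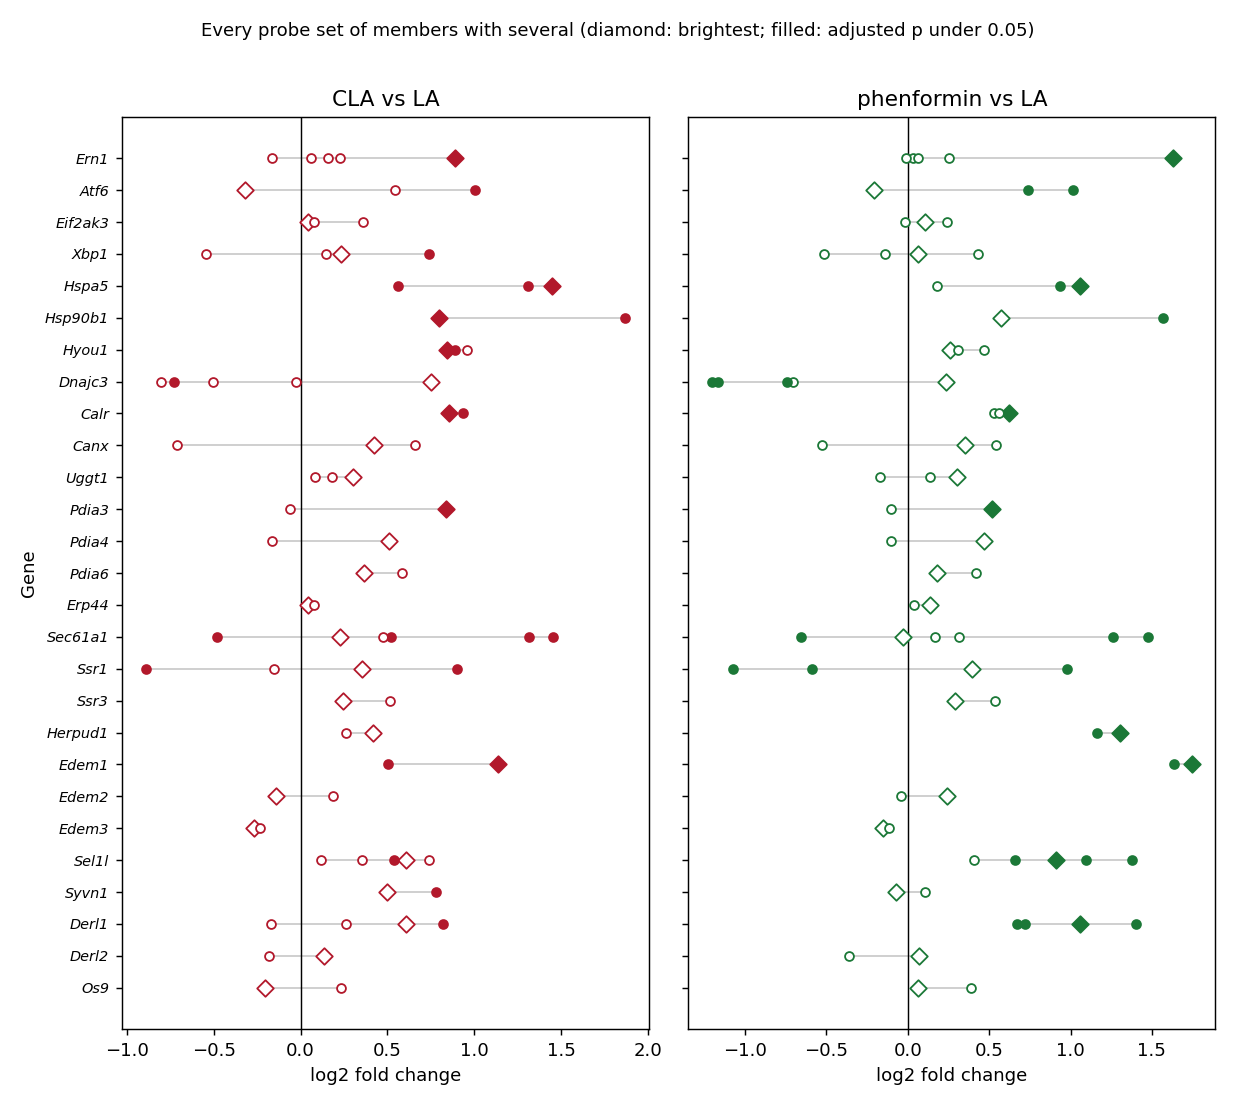
Each row is a member with several probe sets, and each point the log2 fold change of a probe set in CLA against LA (left panel) or phenformin against LA (right panel). Diamonds mark the brightest probe set and filled points an adjusted p under 0.05. Sec61a1 and Ssr1 have filled points on both sides of 0, and all points of Hsp90b1, Calr, Herpud1 and Edem1 lie right of 0.

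Other genes of the pathway were counted from a list of 77, of which 73 were measured. In phenformin against LA 22 were higher and 2 lower, in CLA against LA 25 were higher and 4 lower, and between phenformin and CLA 3 were higher and 2 lower. The shares higher were 30.1%, 34.2% and 4.11%, against 20.4%, 18.6% and 5.91% of genes that were not dim. The PERK arm and shared stress targets changed most: of 10 genes, 7 were higher in phenformin and 6 in CLA than in LA, with median differences of 2.14 and 1.12 (1.84 and 0.96 after quantile normalization). Ddit3, the transcription factor CHOP, had log2 values of 12.51, 12.62 and 12.90 in phenformin, 11.39, 11.36 and 11.38 in CLA, and 9.61, 9.75 and 9.68 in LA. The groups did not overlap, and Ddit3 was 3.00 ± 0.12 higher in phenformin and 1.70 ± 0.12 higher in CLA than in LA (adjusted p = 1.61e-06 and 1.18e-05). Chac1, a target of ATF4 that degrades glutathione, differed in the same way, by 2.44 ± 0.10 in phenformin and 1.08 ± 0.10 in CLA against LA.

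Phenformin exceeded CLA for Ddit3 (1.30 ± 0.12, adjusted p = 0.000314), Chac1 (1.36 ± 0.10, adjusted p = 0.000129) and Trib3, a pseudokinase induced by ATF4 and CHOP (1.12 ± 0.23, adjusted p = 0.0219). Atf3, a stress-induced transcription factor, was instead lower in phenformin than in CLA (-1.19 ± 0.15, adjusted p = 0.00233), with log2 values of 9.37, 9.33 and 9.78 in phenformin, 10.53, 10.70 and 10.82 in CLA, and 6.13, 6.45 and 6.11 in LA. Atf4 and Ppp1r15a, the phosphatase subunit that restores translation, were 2.02 ± 0.12 and 3.28 ± 0.15 higher in phenformin and 1.70 ± 0.12 and 2.88 ± 0.15 higher in CLA than in LA. All 4 directions of phenformin against CLA held after quantile normalization and without LA replicate 3.

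Among 7 ATF6-type transcription factors and their proteases, 3 were higher and 1 lower than in LA in either treatment. Creb3l1 and Creb3l2 were 1.67 ± 0.26 and 1.29 ± 0.12 higher in phenformin and 1.97 ± 0.26 and 1.27 ± 0.12 higher in CLA, and Creb3 was lower (-0.71 ± 0.12 and -0.56 ± 0.12). After quantile normalization 2 were higher and 2 lower in phenformin. Of 19 further folding factors, 4 were higher and 1 lower in phenformin, and 4 higher and 2 lower in CLA than in LA. The share higher was 21.1% in each, near the 20.4% and 18.6% of genes that were not dim. Ero1a, the oxidase that recharges the isomerases, had 2.42 ± 0.31 in phenformin (adjusted p = 0.000544) and 1.42 ± 0.31 in CLA (adjusted p = 0.0104). Fkbp11, a prolyl isomerase, had 0.84 ± 0.11 in phenformin and 1.31 ± 0.11 in CLA, and was the folding factor called lower in phenformin than in CLA (-0.47 ± 0.11, adjusted p = 0.0356). After quantile normalization 3 folding factors were higher and 4 lower in phenformin, and 3 higher and 2 lower in CLA, than in LA.

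Of 20 genes of the signal peptidase, translocon and oligosaccharyltransferase, 3 were higher in phenformin and 4 in CLA than in LA, with none lower, shares of 15% and 20% that are near those of all genes given above. Ostc and Ddost, subunits of the enzyme that attaches sugars, had 1.08 ± 0.14 and 0.92 ± 0.17 in phenformin and 1.20 ± 0.14 and 0.88 ± 0.17 in CLA. After quantile normalization 2 were higher and 2 lower in phenformin and 2 higher in CLA. Of 15 further disposal factors, 4 were higher in phenformin and 8 higher and 1 lower in CLA than in LA. The shares higher were 26.7% and 53.3%, against 20.4% and 18.6% of genes that were not dim. Median differences from LA were 0.30 and 0.67. Unlike the 10 disposal members, this list thus had more calls in CLA than in phenformin. Between phenformin and CLA 8 of the 15 were negative and 0 were called. Either quantile normalization or leaving out LA replicate 3 gave 3 of them lower in phenformin than in CLA. Ube2j1, a ubiquitin-conjugating enzyme of the ER membrane, had 0.76 ± 0.12 in phenformin and 0.75 ± 0.12 in CLA, and Herpud2, a relative of Herpud1, 0.91 ± 0.16 and 0.83 ± 0.16. After quantile normalization 3 were higher and 3 lower in phenformin, and 8 higher and 2 lower in CLA. Of the 2 survival factors at the ER membrane Wfs1 was called, higher in phenformin than in LA (0.68 ± 0.14, adjusted p = 0.00683).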

How the data were processed

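The authors deposited log2 expression values of probe sets. Whether these values were normalized between arrays is not known, as their 99th percentiles ran from 11.62 to 12.45. The submitters' processing notes name RMA and R 2.9.0. Their deposited limma tables hold, per the file headers, a log2 fold change for each probe set, the moderated t and the log odds as a score, and raw and adjusted p-values. In them 8 members were higher and 0 lower in phenformin against LA, 10 and 0 in CLA against LA, and 1 and 1 in phenformin against CLA.

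A single limma fit (lmFit, contrasts, eBayes; limma 3.58.1, R 4.3.3) was run on all 9 arrays and 45037 probe sets, 64 controls of 45101 being left out, two-sided, with Benjamini-Hochberg adjustment and a threshold of 0.05. Probe sets with a single gene symbol (34945) were named, which gave 73 of 77 pathway genes and 28 of 30 markers, and the rest of these lists is not analysed here. Dim means a highest group mean at or under 5.07, the median of all values. The background level is the 95th percentile of 27 control probe sets. With 3 arrays a group, an exact two-sided permutation test reaches 0.1 at best, so limma was used. The fit was tested on simulated data. Python 3.11.15, pandas 2.3.3 and matplotlib 3.10.9 were used.

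The members and lists were chosen with earlier results of these data known. By rule the text names all members, and up to 4 genes per pathway list and comparison with the smallest adjusted p. The 17 alternative settings were each array left out, a replicate block, a separate fit for each pair of groups and centring on the median. The others were quantile normalization, a dim filter, an intensity trend, the mean of a gene's probe sets and an RNA quality covariate. Counting any probe set of a gene, and giving the pathway lists under each scaling, were added after the data were seen. Precision is limited by 3 arrays per group. The p-values measure the spread between arrays that the labels call biological replicates, from which cultures is not stated.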

Additional observations from a re-analysis of the deposited data

How the results depend on the processing

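The members higher numbered 8 in phenformin against LA, 10 in CLA against LA and 1 in phenformin against CLA, with 0, 0 and 1 lower. Counting any probe set of a gene, chosen after seeing the data, gave 12, 17 and 3 higher and 3, 3 and 2 lower, without a share over all genes to set beside them. Quantile normalization gave 4 lower in phenformin against LA, 1 lower in CLA against LA, and 2 higher and 3 lower in phenformin against CLA. The shares of all genes under that setting are given above. The mean of a gene's probe sets gave 1 lower in phenformin against LA and 3 higher and 2 lower in phenformin against CLA. In phenformin against CLA, 2 were higher without dim probe sets and 3 in a fit of those groups alone. With the replicate block 14 were higher in CLA against LA and 2 in phenformin against CLA. The replicate numbers did not pair the arrays across all 3 groups. Of 9 same-number pairs 2 correlated over 0.1 (r from -0.285 to 0.582), and 0 of 9 arrays correlated best with its own number in both other groups. Between CLA and phenformin alone, r was 0.29, 0.092 and 0.582 for replicates 1, 2 and 3. Pairs of unlike number gave -0.532 to 0.386. The pyruvate carboxylase differences were 4.55, 4.20 and 3.33 in CLA and 4.50, 4.03 and 3.30 in phenformin. Whether the numbers pair these groups was not tested. Leaving out each array gave 4 to 10 higher and 0 to 0 lower in phenformin against LA (4 without phenformin replicate 1), 7 to 12 higher and 0 to 2 lower in CLA against LA, and 1 to 3 higher and 1 to 2 lower in phenformin against CLA. With the RNA quality covariate 6 were higher in phenformin against LA and 7 in CLA against LA, and 6 of the 10 CLA calls were lost. Of 1836 values for single genes, 1668 kept their direction and side of the threshold, 79 changed sign without a call in either setting, 46 gained a call, 41 lost one and 2 changed sign with a call. With the mean of probe sets, Dnajc3 was -0.72 ± 0.14 (adjusted p = 0.00485) in phenformin against LA, where its brightest probe set gave 0.23, and Sec61a1 was 0.42 ± 0.13 (adjusted p = 0.0439), where the brightest gave -0.03. The probe sets averaged differ in sign, which by construction gives these reversals. The causes of the other changes were not tested.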

Other observations

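Exactly equal values on different arrays were common in the deposited table. They occurred for 12 of the 36 members (33.3%) by the brightest probe set, such as Dnajb11 on the phenformin arrays, and for 47.7% of 45037 probe sets. The SD of such a group understates its spread.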
